A study of Mus musculus with 7 samples.

Results

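The genes described here are 9 receptors for dopamine and noradrenaline, namely Drd1, Drd2, Drd5, Adra1a, Adra1b, Adra1d, Adra2a, Adra2c and Adrb1. They were taken by symbol, through GENCODE M21, from a deposited table of 39017 gene IDs, and each symbol matched exactly 1 ID. The table holds RNA-seq read counts of mouse hippocampus after translating ribosome affinity purification (TRAP), which uses an EGFP tag on ribosomal protein L10 to pull down ribosomes and the RNA they carry. All 7 libraries are labelled hippocampus, and per the design text the mice were GAD2 cre+ crossed with L10-EGFP+, with 2 hippocampi pooled for a TRAP sample. Cre from the Gad2 gene marks GABAergic neurons, so the tag reports any cell in which that gene was ever active, and the labels state no age, sex, strain or added treatment. The bound group (3 libraries, titles GAD_ctrl1 to GAD_ctrl3) is the pulled-down RNA, and the unbound group (4 libraries, titles UBS7, UBS8, UBGS8 and UBGS9) is RNA left behind. The labels do not say what the prefixes UBS, UBGS and GAD_ctrl stand for, or which libraries share animals, so the p-values rest on library-to-library spread, some of it perhaps technical.

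Dopamine and noradrenaline reach the hippocampus in axons from the brainstem and act on G protein-coupled receptors. The D1-like receptors (Drd1, Drd5) and the beta receptors couple to stimulatory G proteins that raise cAMP, the D2-like (Drd2) and alpha-2 receptors couple to inhibitory G proteins that lower it, and the alpha-1 receptors couple to Gq and phospholipase C. In hippocampus these receptors are known to modulate both pyramidal cells and interneurons.

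Library totals ranged from 38690380 to 51953811 counts. Gad2 was 4.99-fold higher and Slc17a7, the vesicular glutamate transporter of excitatory neurons, lower by −5.09 on the log2 scale in bound libraries (edgeR adjusted p = 8.5e-07 and 1.8e-10). All 11 GABAergic markers tested were higher and all 10 excitatory markers lower, and so were 7 of 8 astrocyte, 6 of 6 oligodendrocyte and 7 of 9 endothelial and mural markers. All 8 microglia markers were higher, with a summed level of 158 to 457.9 CPM in bound and 63.9 to 91.4 CPM in unbound libraries. CPM are counts scaled to a common library size after TMM normalization, which takes most genes as equal between libraries. The TMM factors were 0.841 to 0.910 in unbound and 1.14 to 1.22 in bound libraries, so every fold change depends on this scaling. A gene was called when its adjusted p in edgeR's quasi-likelihood test, fitted to all 19563 genes that passed the filter on low counts, was under 0.05.

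All 9 receptors passed that filter and 8 differed between bound and unbound libraries, 5 higher and 3 lower in the bound. Among all genes tested 61.7% were called, 31.0% higher and 30.7% lower, so a count of 8 of 9 says little by itself. With so many genes called, the assumption behind TMM may not hold. For the same 8 receptors no bound library fell within the unbound range, which held for 63.3% of all genes. The median log2 fold change (bound minus unbound) of the 9 was 0.56, against −0.01 for all genes tested. The dopamine, alpha-1 and alpha-2 families were each split. Drd2, Drd1, Adra1b, Adra1a and Adra2a were higher in the pulled-down RNA and Drd5, Adra1d and Adra2c were lower, while Adrb1 did not pass. In these bulk libraries, fewer cells with a transcript, less transcript per cell and a smaller part of it on ribosomes cannot be told apart.

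**Figure D1:**
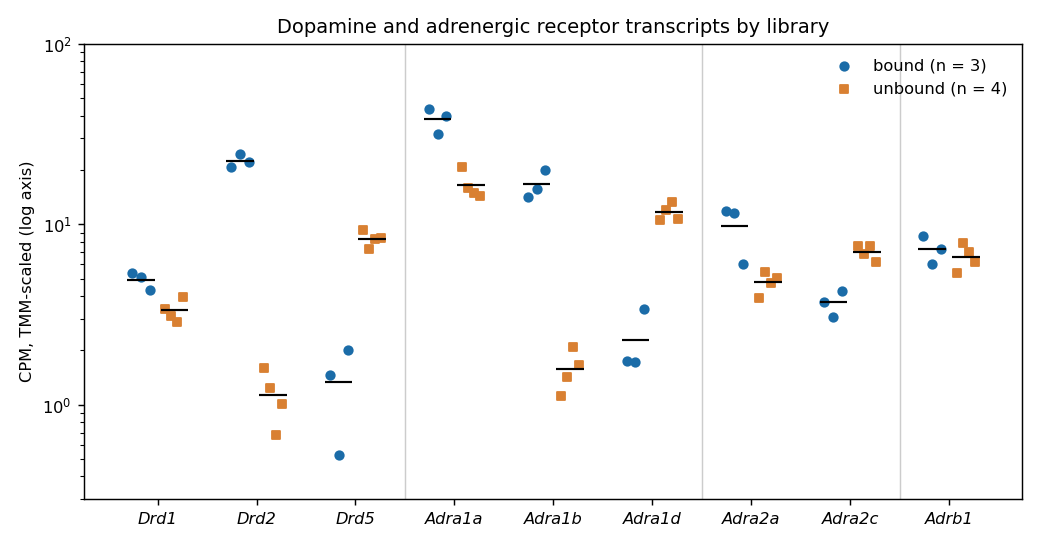
TMM-scaled counts (CPM, log axis) of the 9 receptor genes in each bound library (blue circles, n = 3) and each unbound library (orange squares, n = 4), with the group means as black bars. The 2 groups are apart for 8 of the genes and overlap for Adrb1.

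For the genes with the widest differences, the 250 bases upstream of each transcription start listed by RefSeq on GRCm38.p6 (the assembly of mm10) are shown for comparison. RefSeq starts differ from the GENCODE gene bounds given below: 142 bases of the Drd5 window and all 250 of the downstream Adra1b window lie inside the GENCODE gene. They read 5′ to 3′ along the gene, and capitals mark the GC box, GGGCGG or its reverse complement, which 32.7% of the 32851 windows of this length in the table hold. Drd2 and Adra1b were the most raised of the 9 and Drd5 the most lowered, and both listed starts of Adra1b are given.
Drd2, chr9:49340153-49340402, plus strand: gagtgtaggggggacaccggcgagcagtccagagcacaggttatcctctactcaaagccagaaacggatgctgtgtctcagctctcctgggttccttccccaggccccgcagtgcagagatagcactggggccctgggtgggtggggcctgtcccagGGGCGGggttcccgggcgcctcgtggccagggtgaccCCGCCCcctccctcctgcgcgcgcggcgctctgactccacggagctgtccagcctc
Adra1b, upstream start, chr11:43901238-43901487, minus strand: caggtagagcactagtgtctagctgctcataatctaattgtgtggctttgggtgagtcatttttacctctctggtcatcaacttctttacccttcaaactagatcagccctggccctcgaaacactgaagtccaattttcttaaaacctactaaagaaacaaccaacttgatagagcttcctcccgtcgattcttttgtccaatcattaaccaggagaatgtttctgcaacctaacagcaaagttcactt
Adra1b, downstream start, chr11:43836490-43836739, minus strand: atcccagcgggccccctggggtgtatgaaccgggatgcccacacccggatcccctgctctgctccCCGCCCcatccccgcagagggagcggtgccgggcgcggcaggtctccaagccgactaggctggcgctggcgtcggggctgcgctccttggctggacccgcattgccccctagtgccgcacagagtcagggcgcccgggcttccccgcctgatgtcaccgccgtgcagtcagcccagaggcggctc
Drd5, chr5:38319259-38319508, plus strand: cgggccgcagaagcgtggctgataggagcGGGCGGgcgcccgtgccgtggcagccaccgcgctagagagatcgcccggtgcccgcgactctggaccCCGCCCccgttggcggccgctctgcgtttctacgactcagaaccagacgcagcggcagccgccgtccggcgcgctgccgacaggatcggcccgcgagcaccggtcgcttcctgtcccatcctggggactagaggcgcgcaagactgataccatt
The Drd2 and Drd5 windows each held 2 GC boxes, although the genes went in opposite directions. The downstream Adra1b window held 1 and the upstream window none. GC content was 68.8% for Drd2, 71.2% for Drd5 and 41.6% and 72.8% for the upstream and downstream Adra1b windows, where the median of all windows was 52.4%. A TATA box (TATAAA, either strand, in 12.4% of all windows), a cAMP response element (TGACGTCA, a palindrome, in 1.55%) and the homeodomain core TAATTA (a palindrome, in 4.84%) were found in none of these 4 windows. The table gave windows for 7 of the 9 receptors, without Adra1a and Adra1d. Among the others Adra2a alone held a TATA box.

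Drd2 encodes the D2 receptor (ENSMUSG00000032259, mm10 chromosome 9, 49340627 to 49408177, protein-coding, with no exon overlap with another gene). It stood at 20.8, 24.6 and 22.3 CPM in bound replicates 1 to 3 and at 1.59, 1.24, 0.681 and 1.01 CPM in unbound replicates 1 to 4. Every bound library was far above every unbound library, and the bound libraries lay close together. The raw counts behind these values ran from 29 to 1539. The means were 22.6 ± 1.93 CPM (SD, n = 3) and 1.13 ± 0.381 CPM (SD, n = 4), so that Drd2 was 20.1-fold higher in the bound group (log2 4.33, SE 0.22, edgeR adjusted p = 5.0e-08). Against the UBS and the UBGS libraries taken separately the log2 difference was 4.01 and 4.76 (edgeR adjusted p = 1.7e-06 and 7.4e-06).

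Drd5 encodes the D5 receptor, a D1-like receptor (ENSMUSG00000039358, chromosome 5, 38319367 to 38322518, protein-coding, a single exon). It went the other way, with 1.46, 0.528 and 2.02 CPM in bound replicates 1 to 3 and 9.31, 7.32, 8.25 and 8.35 CPM in unbound replicates 1 to 4. The groups were wide apart, and bound replicate 2, at 33 counts, was the lowest of all libraries. The fall was 6.30-fold (1.33 ± 0.753 CPM, SD, n = 3, against 8.31 ± 0.817 CPM, SD, n = 4, log2 −2.66, SE 0.36, edgeR adjusted p = 7.6e-05). Exons of the antisense gene Gm26560 cover 48.6% of the Drd5 exon, and the strand setting of the counting is not given in the sources used here. Whether reads from the shared stretch were counted for Drd5, for Gm26560 or for neither is thus not known. Gm26560 was itself lower in bound libraries, at 0.490 ± 0.255 CPM (SD, n = 3) against 3.51 ± 0.241 CPM (SD, n = 4).

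Drd1, the D1 receptor (ENSMUSG00000021478, chromosome 13, 54051183 to 54055705, protein-coding), differed least among the called receptors. It stood at 5.38, 5.08 and 4.31 CPM in bound replicates 1 to 3 and at 3.41, 3.11, 2.87 and 3.98 CPM in unbound replicates 1 to 4. The lowest bound library was only slightly above the highest unbound library. The mean was 1.47-fold higher in the bound group (4.92 ± 0.550 CPM, SD, n = 3, against 3.34 ± 0.479 CPM, SD, n = 4, log2 0.56, SE 0.20, edgeR adjusted p = 0.028). The call was lost without unbound replicate 2 or 3, without bound replicate 1 or 2, and against either title series alone, at edgeR adjusted p = 0.057, 0.082, 0.077, 0.056, 0.093 (UBS) and 0.091 (UBGS). A test against a 1.5-fold minimum did not call it either (edgeR adjusted p = 0.52), and the adjusted p over all settings ran from 0.001.

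Drd3 and Drd4, which encode the other D2-like receptors and are not among the 9, were too low to be tested. Counts of Drd3 were 23, 0 and 13 in the 3 bound libraries and 0, 2, 2 and 5 in the 4 unbound ones. Drd4 had 10, 4 and 9 counts in bound and 0, 3, 2 and 4 in unbound libraries. A count of 0 allows up to 3 counts, which is 0.048 CPM in bound replicate 2 and 0.088 CPM in unbound replicate 1 (counting error only).

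To set receptors beside each other, CPM were divided by the length of each gene's merged annotated exons in kilobases. On this per-length scale Drd2 made up 83.2% ± 2.67 of the summed Drd1, Drd2 and Drd5 level in bound libraries (SD, n = 3) and 11.0% ± 3.10 in unbound libraries (SD, n = 4). Drd5 made up 4.04% ± 2.33 of that sum in bound and 66.0% ± 3.60 in unbound libraries. The share of Drd1 was 12.8% ± 1.73 in bound and 23.0% ± 2.53 in unbound libraries. Of these 3 genes Drd2 thus held the largest share in the bound libraries and Drd5 in the unbound libraries. The overlap with Gm26560 may have raised or lowered the Drd5 counts. With the coding length in place of the exon length the Drd2 shares were 78.5% in bound and 9.20% in unbound libraries, and the Drd5 shares 4.38% and 63.5%.

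**Figure D2:**
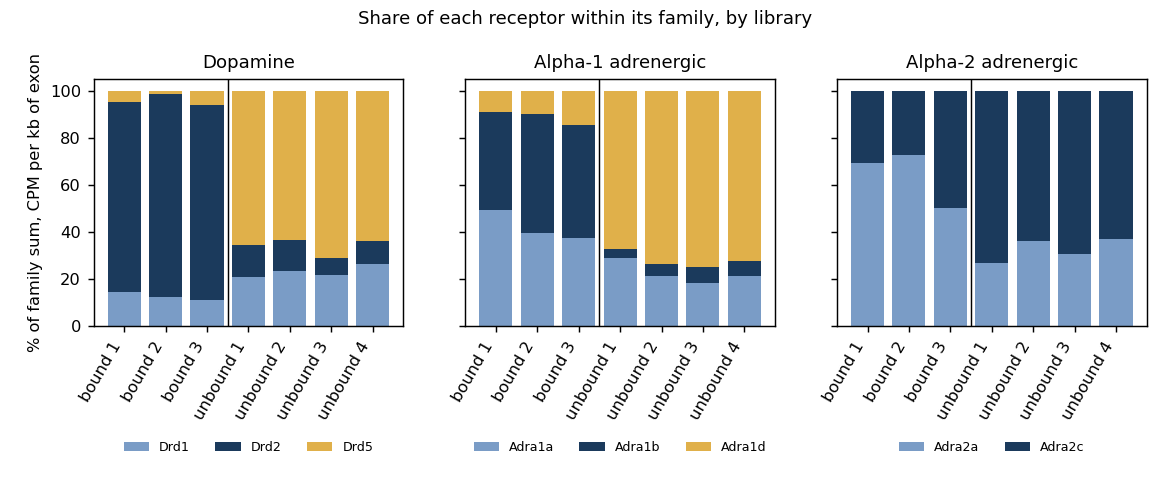
Share (%) of each receptor gene in the summed level of its family, in CPM per kilobase of merged exon, for bound libraries 1 to 3 and unbound libraries 1 to 4 (stacked bars, the black line divides the groups). Drd2 fills most of the dopamine bar in bound and Drd5 in unbound libraries, and Adra1d fills most of the alpha-1 bar only in unbound libraries.

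Adra1b, an alpha-1 receptor (ENSMUSG00000050541, chromosome 11, 43774606 to 43901210, protein-coding), had the next largest rise among the 9 after Drd2. It stood at 14.2, 15.6 and 20.03 CPM in bound replicates 1 to 3 and at 1.12, 1.43, 2.09 and 1.65 CPM in unbound replicates 1 to 4. The groups were far apart in every library. The rise was 10.5-fold (16.6 ± 3.02 CPM, SD, n = 3, against 1.57 ± 0.410 CPM, SD, n = 4, log2 3.39, SE 0.22, edgeR adjusted p = 2.2e-07), and it was 3.70 and 3.17 on the log2 scale against the UBS and UBGS libraries alone.

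Adra1a, another alpha-1 receptor (ENSMUSG00000045875, chromosome 14, 66635251 to 66771168, protein-coding), had the highest CPM of the 9 in both groups. It stood at 43.4, 31.5 and 39.9 CPM in bound replicates 1 to 3 and at 20.9, 15.9, 14.9 and 14.4 CPM in unbound replicates 1 to 4. The groups did not overlap, and unbound replicate 1 was the highest of its group. The rise was 2.32-fold (38.3 ± 6.10 CPM, SD, n = 3, against 16.5 ± 2.96 CPM, SD, n = 4, log2 1.21, SE 0.15, edgeR adjusted p = 3.7e-05). Its merged exons are 8728 bases long, of which 1412 are coding, so its level per length depends strongly on which length is used.

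Adra1d, the remaining alpha-1 receptor (ENSMUSG00000027335, chromosome 2, 131545850 to 131562283, protein-coding), fell. It stood at 1.75, 1.73 and 3.38 CPM in bound replicates 1 to 3 and at 10.6, 11.9, 13.3 and 10.7 CPM in unbound replicates 1 to 4. Bound replicate 3 was above its 2 companions and still well under every unbound library. The fall was 5.14-fold (2.29 ± 0.948 CPM, SD, n = 3, against 11.6 ± 1.27 CPM, SD, n = 4, log2 −2.36, SE 0.25, edgeR adjusted p = 1.1e-05). The antisense gene Gm14285 covers 7.74% of its exons and was lower too (0.445 ± 0.297 CPM, SD, n = 3, against 2.22 ± 0.493 CPM, SD, n = 4).

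Within the alpha-1 family, Adra1d held 72.1% ± 3.42 of the per-length level in the unbound group (SD, n = 4), against 11.2% ± 2.91 in the bound group (SD, n = 3). Adra1b held 5.45% ± 1.22 in unbound and 46.8% ± 4.61 in bound libraries. Adra1a held 22.4% ± 4.47 in unbound and 41.98% ± 6.37 in bound libraries. Per coding length Adra1a held 59.4% in unbound and 69.0% in bound libraries and Adra1d 35.4% and 3.41%, so Adra1a and not Adra1d was then the leading alpha-1 transcript of the unbound libraries.

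Adra2a, an alpha-2 receptor (ENSMUSG00000033717, chromosome 19, 54044151 to 54048982, protein-coding, 1 exon block), was higher in the bound libraries. It stood at 11.9, 11.5 and 6.06 CPM in bound replicates 1 to 3 and at 3.91, 5.45, 4.72 and 5.06 CPM in unbound replicates 1 to 4. Bound replicate 3 lay far below the other bound libraries and only just above the highest unbound library. The mean rise was 2.05-fold (9.81 ± 3.25 CPM, SD, n = 3, against 4.78 ± 0.655 CPM, SD, n = 4, log2 1.04, SE 0.23, edgeR adjusted p = 0.0026). Without bound replicate 3 the log2 difference was 1.29, and over all settings it ran from 0.88 to 1.48.

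Adra2c, a further alpha-2 receptor (ENSMUSG00000045318, chromosome 5, 35278319 to 35281763, protein-coding, 1 exon), was lower in the bound libraries. It stood at 3.72, 3.07 and 4.29 CPM in bound replicates 1 to 3 and at 7.61, 6.87, 7.56 and 6.15 CPM in unbound replicates 1 to 4. No bound library reached the lowest unbound library. The fall was 1.91-fold (3.69 ± 0.607 CPM, SD, n = 3, against 7.05 ± 0.688 CPM, SD, n = 4, log2 −0.93, SE 0.18, edgeR adjusted p = 9.9e-04), and −0.50 on the log2 scale with library totals in place of TMM.

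Of the summed per-length level of Adra2a and Adra2c, Adra2a made up 64.1% ± 12.2 in bound libraries (SD, n = 3) and 32.7% ± 4.77 in unbound libraries (SD, n = 4). Bound replicate 3, where Adra2a was lowest, held the 2 genes at nearly equal shares.

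Adra2b encodes the last alpha-2 receptor and is not among the 9 (ENSMUSG00000058620, chromosome 2, 127363208 to 127367221, 1 exon block). Its counts were 247, 179 and 88 in the 3 bound libraries and 9, 4, 1 and 3 in the 4 unbound ones. It was nearly undetected in the unbound libraries and clearly present in every bound library. The levels were 3.03 ± 1.13 CPM (SD, n = 3) and 0.114 ± 0.105 CPM (SD, n = 4), a fitted rise of 27.2-fold (log2 4.77, SE 0.57, edgeR adjusted p = 2.7e-05). The size is uncertain because so few unbound counts stand behind it. It was 5.54 without unbound replicate 1, and 4.11 and 5.92 against the UBS and UBGS libraries alone.

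Adrb1, the beta-1 receptor (ENSMUSG00000035283, chromosome 19, 56722199 to 56733113, protein-coding), was not called. It stood at 8.58, 6.04 and 7.33 CPM in bound replicates 1 to 3 and at 5.38, 7.83, 7.05 and 6.20 CPM in unbound replicates 1 to 4. The groups overlapped, with means of 7.31 ± 1.27 CPM (SD, n = 3) and 6.61 ± 1.06 CPM (SD, n = 4). The log2 difference was 0.14 (95% interval −0.26 to 0.55, edgeR adjusted p = 0.52). The interval leaves room for a rise nearly as large as the one called for Drd1 (0.56). With library totals in place of TMM, which moved the median of all genes to 0.43, Adrb1 stood at 0.57 and was called (edgeR adjusted p = 0.023, over a range up to 1).

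Adrb3, the beta-3 receptor, is not among the 9, was low and was not called. It stood at 0.800 ± 0.330 CPM (SD, n = 3) in bound and 0.456 ± 0.071 CPM (SD, n = 4) in unbound libraries (log2 0.82, SE 0.45, edgeR adjusted p = 0.14), and 24.9% of its exons overlap the antisense gene Gm45470. With library totals it was called (log2 1.26, edgeR adjusted p = 0.029, over a range up to 0.42).

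**Figure D3:**
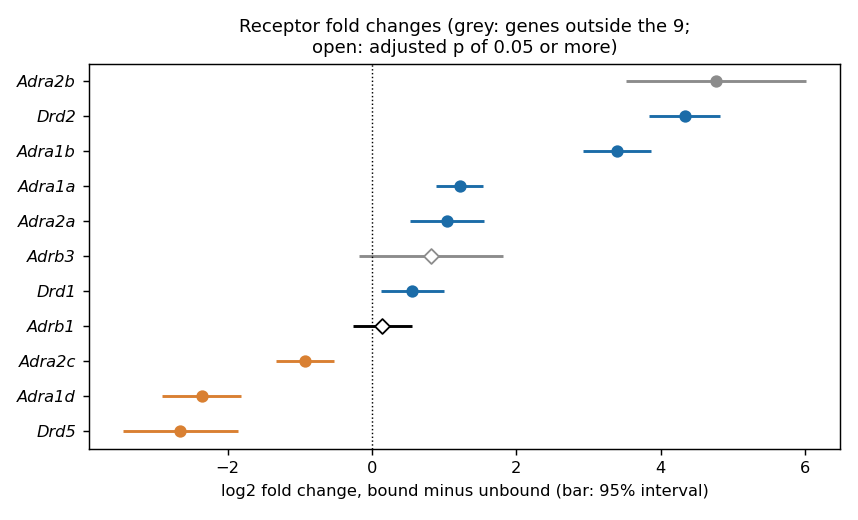
Log2 fold change, bound minus unbound, of 11 catecholamine receptor genes (edgeR, bars are 95% intervals). Blue marks called rises and orange called falls among the 9 receptors, black is Adrb1, grey marks genes outside the 9, and open diamonds were not called. Values run from −2.66 for Drd5 to 4.77 for Adra2b.

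Ordered by level per kilobase of merged exon, the bound libraries read Drd2, Adra1b, Adra1a, Adrb1, Adra2a, Drd1, Adra1d, Adra2c and Drd5. The level of Drd2 was 8.86 ± 0.757 CPM per kilobase (SD, n = 3), and its libraries did not overlap those of Adra1b (4.92 ± 0.892). Adra1b overlapped Adra1a (4.39 ± 0.699). From Adrb1 through Adra2a, Drd1 and Adra1d to Adra2c, neighbours in the order overlapped, between means of 2.16 and 1.07 CPM per kilobase. Drd5 lay apart from them at 0.423 ± 0.239. The unbound libraries read Adra1d, Drd5, Adra2c, Adrb1, Adra1a, Adra2a, Drd1, Adra1b and Drd2. Adra1d at 6.13 ± 0.668 CPM per kilobase (SD, n = 4) and Drd5 at 2.64 ± 0.259 each stood clear of the next gene. Adra2c, Adrb1 and Adra1a overlapped in sequence around 2 CPM per kilobase, as did Adra2a with Drd1. Adra1b and Drd2, at 0.465 ± 0.121 and 0.444 ± 0.150, overlapped at the bottom. The first gene of the bound order was thus the last of the unbound order. Per coding length Adra1a came first in both groups, at 27.1 ± 4.32 and 11.7 ± 2.09 CPM per kilobase, and Drd2 was next in bound and still last in unbound libraries.

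Summed by the G protein they use, the 3 receptors that couple to inhibitory G proteins (Drd2, Adra2a, Adra2c) held 45.4% ± 5.06 of the per-length level of the 9 in bound libraries (SD, n = 3) and 19.9% ± 0.935 in unbound libraries (SD, n = 4). The 3 stimulatory receptors (Drd1, Drd5, Adrb1) held 14.9% ± 1.96 in bound and 31.6% ± 1.496 in unbound libraries. The Gq-coupled alpha-1 receptors held 39.7% ± 4.45 and 48.5% ± 1.84. Per coding length the Gq-coupled share turned direction, at 51.7% ± 4.37 in bound and 46.6% ± 2.09 in unbound libraries, with overlapping libraries. The inhibitory share was then 35.4% ± 4.92 against 22.4% ± 0.735 and the stimulatory share 13.0% ± 1.10 against 31.0% ± 1.71. These shares are descriptions of the 9 chosen genes, and Drd2 and Drd5 carry most of the first pair of differences. The summed level of the 9 was 26.4 ± 1.04 CPM per kilobase in bound and 17.5 ± 0.694 CPM per kilobase in unbound libraries.

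Markers of other neurons were read beside the Drd2 and Drd1 values, because both receptors are also abundant in the striatum and Drd2 is known from hilar mossy cells, which are excitatory. Of 10 markers of striatal projection neurons, 7 were higher and 2 lower in bound libraries, against 31.0% and 30.7% of all genes tested. Their summed level was 127.9 to 157.6 CPM in bound and 118.9 to 140.8 CPM in unbound libraries. Isl1, a transcription factor of striatal neurons, was counted 534, 316 and 59 times in bound replicates 1 to 3 and 0 times in each unbound library. Its bound mean, 5.18 ± 3.90 CPM (SD, n = 3), was at least 68.4-fold above a floor of 3 counts in each unbound library. That limit was 42.3-fold without bound replicate 1, and it holds for the mean and not for each bound library. Six3, another such transcription factor, stood at 13.4, 10.9 and 5.24 CPM in bound and 0.395 to 0.705 CPM in unbound libraries. Adora2a, the adenosine receptor that marks Drd2 neurons of the striatum, was at 0.925, 0.384 and 1.66 CPM in bound and 0.272 to 0.441 CPM in unbound libraries. Ppp1r1b and Rgs9, also on that list, were lower in bound libraries, and Pde10a did not pass. Bound replicates 1 and 3 stood at 9.14 and 1.34 CPM for Isl1 and at 13.4 and 5.24 CPM for Six3. In the same libraries Drd1 stood at 5.38 and 4.31 CPM and Drd2 at 20.8 and 22.3 CPM. Adra2a stood there at 11.9 and 6.06 CPM and Adra2b at 4.23 and 2.00 CPM. The part of neurons from outside the hippocampus in these receptor values was not tested. Of 6 mossy cell markers, 3 were lower (Ociad2, Nmb, Calcrl) and 1, Calb2, which interneurons also make, was higher, with a summed level of 108.7 to 124.6 CPM in bound and 180.7 to 207.3 CPM in unbound libraries.

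The genes whose profiles over the 7 libraries came closest to each receptor were sought among 12744 protein-coding genes with a mean of at least 1 CPM, by the Euclidean distance of mean-centred log2 CPM. Closest to Drd2 were Npffr1, a receptor for neuropeptide FF (distance 0.68), and Calca, which encodes calcitonin and CGRP (0.73). Closest to Adra1b were Tmsb10, a thymosin (0.54), and Lhx6, a transcription factor of interneurons from the medial ganglionic eminence (0.56). Closest to Drd5 were Pex11g and Tm4sf1 (0.41 and 0.46), to Adra1d Pla2g16 and Pou3f2 (0.37 and 0.38), and to Adra2c Nphp4 and Hip1 (0.20 and 0.24). Adra1a lay closest to Slc7a5 and Utrn (0.25 and 0.27), Adra2a to Il13ra1 and Magohb (0.40 and 0.41), Drd1 to Fam136a and Lsg1 (0.25 and 0.30), and Adrb1 to Tex9 and Tmem132a (0.12 and 0.20). With 2 groups of libraries such a distance reflects mostly the size of the difference between them.

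The genes that make, move and break down the transmitters gave a mixed picture. Of 13 listed, 9 were tested, with 3 higher and 3 lower (median log2 −0.10). Maob, a monoamine oxidase, was 2.69-fold lower (3.16 ± 0.991 against 8.48 ± 1.26 CPM). Th, the rate-limiting enzyme of catecholamine synthesis, was higher but low throughout, at 1.70, 1.14 and 2.45 CPM in bound and 0.198 to 0.327 CPM in unbound libraries. Dbh, which makes noradrenaline from dopamine, was lower at 0.016 to 0.086 CPM in bound and 0.399 to 0.735 CPM in unbound libraries. Th and Dbh were picked after their values were seen. The transporter genes Slc6a2 and Slc6a3, for noradrenaline and dopamine, were too low to be tested.

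Of 10 G protein alpha subunit genes, 5 were higher and 2 lower (median log2 0.21). Gnal, which encodes the stimulatory Golf subunit, was 2.46-fold higher (545.6 ± 17.3 CPM, SD, n = 3, against 221.4 ± 12.6 CPM, SD, n = 4, edgeR adjusted p = 4.5e-08), and Gnaq, the partner of alpha-1 receptors, was 2.10-fold lower (182.6 ± 10.6 against 383.9 ± 4.15 CPM). Of 8 adenylyl cyclase genes tested, 3 were higher and 2 lower (median 0.05). Adcy5 was 1.57-fold higher (not called against a 1.5-fold minimum, edgeR adjusted p = 0.19) and Adcy1, a calcium-stimulated cyclase, 3.67-fold lower (234.9 ± 21.6 against 862.5 ± 107 CPM). Of 15 genes of protein kinase A and its targets, 5 were higher and 7 lower (median −0.09). Prkaca, a catalytic subunit, was 2.01-fold higher, and Ppp1r1b, which encodes the dopamine-regulated phosphatase inhibitor DARPP-32, was 2.14-fold lower (15.3 ± 3.93 against 32.8 ± 3.20 CPM, with 15.7% of its exons shared with another gene).

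Of 14 cAMP phosphodiesterase genes tested, 4 were higher and 6 lower (median −0.07). Pde3a was 6.75-fold higher (18.5 ± 0.4998 CPM, SD, n = 3, against 2.72 ± 1.10 CPM, SD, n = 4, edgeR adjusted p = 4.4e-06), and Pde1a, a calcium-activated enzyme, 5.36-fold lower (58.7 ± 12.1 against 314.9 ± 18.5 CPM). In the phospholipase C branch, which alpha-1 receptors use, 2 of 10 genes were higher and 7 lower (median −0.85, against −0.01 for all genes). Among all genes tested 31.0% were higher and 30.7% lower. Plcb4, a phospholipase C, was 3.54-fold higher (78.3 ± 2.74 against 22.1 ± 1.04 CPM), and Itpr2, an inositol trisphosphate receptor, 4.24-fold lower (2.70 ± 0.429 against 11.5 ± 2.33 CPM). Of 7 receptor kinases and arrestins, 5 were higher and 1 lower (median 0.41), with Grk5 2.27-fold higher. Of 8 receptor binding partners, 2 were higher and 5 lower (median −0.17), with Gipc1 1.88-fold higher and Flna, a filamin that binds D2 receptors, 4.13-fold lower. Over these lists and the 5 other receptors together, 30 of 84 genes tested were higher and 33 lower, against 31.0% and 30.7% of all genes. With library totals the split was 47 higher and 22 lower and with an offset for exon length 44 and 21, so the balance of these lists follows the scaling.

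**Figure D4:**
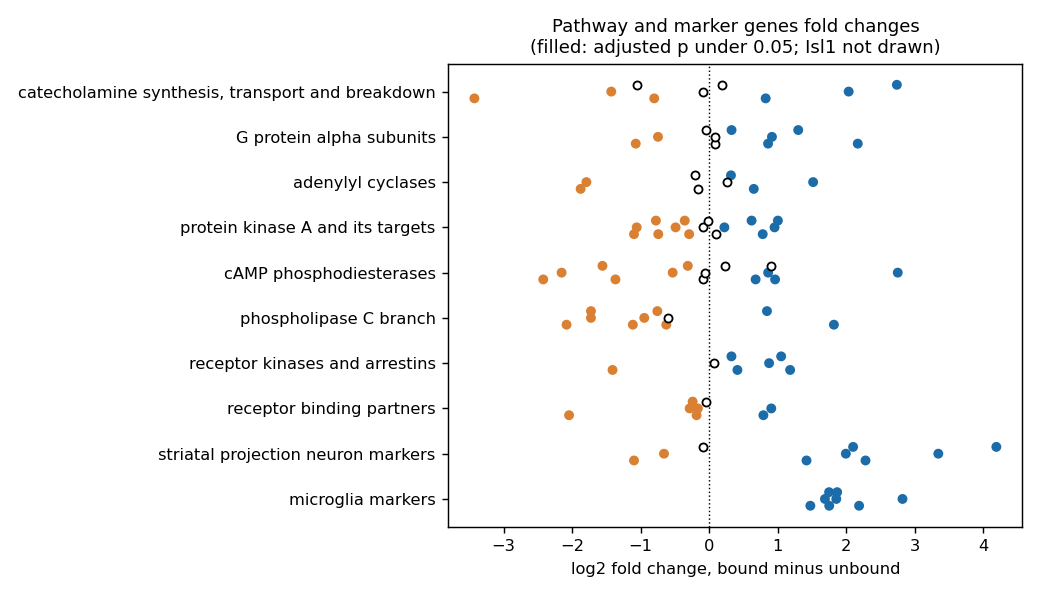
Log2 fold change, bound minus unbound, of each tested gene in 8 catecholamine pathway lists and in the striatal and microglia marker lists (each point is a gene, blue called higher, orange called lower, open not called by edgeR, Isl1 not drawn). Most phospholipase C branch genes lie left of 0 (7 of 10 called lower, against 30.7% of all genes), and all 8 microglia markers lie to the right.

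Because the unbound libraries carry 2 title prefixes, UBS and UBGS were also compared with each other for the receptors (2 libraries each). None of the 9 differed in edgeR's test (0.229% of 19256 genes tested did), none had an unadjusted p under 0.05, and DESeq2 called none. The widest differences, UBS minus UBGS, were for Drd2 (log2 0.73, SE 0.35, edgeR adjusted p = 0.35), Adra1b (−0.55, SE 0.28, edgeR adjusted p = 0.38) and Adra1a (0.32, SE 0.15, edgeR adjusted p = 0.34). Without unbound replicate 2, where a single UBS library is assumed to vary like the UBGS pair, these 3 genes were called. Gad2 itself was higher in the UBS libraries (189.6 and 182 CPM) than in the UBGS libraries (111.7 and 114.4 CPM). Other GABAergic markers were mixed. Sst stood at 109.1 and 101.0 CPM in UBS and 96.3 and 85.3 CPM in UBGS libraries. Dlx1 went the other way, at 23.2 and 23.9 against 25.1 and 25.6 CPM. So did Vip, at 2.47 and 3.58 against 4.56 and 4.30 CPM. The part of the Gad2 difference in that of Drd2 was not tested.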

How the data were processed

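RNA-seq libraries of mouse hippocampus (3 bound, 4 unbound) were analysed from the counts the authors deposited, 1 whole number per gene ID and library. Per the submitters' processing notes, STAR 2.5.3a, HTSeq and mm10 were used. Not given in the sources used here are the annotation release, the strand setting and the library kit. GENCODE M21 gave a symbol for 37607 of the 39017 IDs. The fit across all genes used edgeR 4.0.16 in R 4.3.3 (filterByExpr, TMM, robust quasi-likelihood F test, Benjamini-Hochberg threshold 0.05), with SEs derived from the F statistic and 95% intervals. The script was tested on simulated data. DESeq2 1.42.0 and other scalings, filters, title series and left-out libraries were alternatives. Per-length levels used merged exons or coding lengths. The coding lengths and the Isl1 limit with libraries left out were chosen after seeing the data. Groups came from the labelled treatment, and replicate numbers from accession order.

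The 9 receptors, the pathway lists and the marker lists (GABAergic, excitatory, mossy, striatal, astrocyte, oligodendrocyte, microglia, endothelial and mural) were chosen with earlier results of these data known. Named genes were the 9, other catecholamine receptors, Gad2 and Slc17a7, the most raised and most lowered called gene of each pathway list (mean 5 CPM or more), and the 2 most alike genes per receptor. Marker genes were named after their values were seen. Genes named only by a Gm or Rik identifier were left out of the likeness search, and 1 GABAergic marker whose symbol has more than 1 ID was left out. Some genes that this rule names are not reported here.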

Additional observations from a re-analysis of the deposited data

Results flagged for a closer look

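Gipc1, which encodes a binding partner of the D2 receptor, had 1 unbound library apart from the others. Unbound replicate 1 stood at 11.9 CPM and the other unbound libraries at 14.4 to 14.8 CPM, a gap of 0.862 of the group's range (Dixon's critical value is 0.829). Among 31 genes checked, chance alone would mark about 1 in 20.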

How the results depend on the processing

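In 153 refits of the 9 receptors, bound against unbound, no direction reversed, 145 kept their side of the threshold, 7 lost a call (all Drd1) and 1 gained one (Adrb1, with library totals). The number of receptors called ran from 7 to 9. Against a 1.5-fold minimum, 6854 genes in all were called in place of 12076, and 39 of the pathway genes in place of 63. With library totals 71.5% of called genes were higher (50.3% with TMM) and the all-gene median was 0.43 in place of −0.01. With an exon length offset 62.1% were higher and the median was 0.18. Among the pathway genes the called share that was higher was 47.6% with TMM, 68.1% with library totals and 67.7% with the length offset. For UBS against UBGS, leaving out 1 unbound library gave 0 to 3 receptors called. The small differences changed sign: with 1 library left out, Drd1 ran from −0.29 to 0.18, Drd5 from −0.18 to 0.16, Adra1d from −0.24 to 0.071, Adra2a from −0.33 to 0.16, Adra2c from −0.065 to 0.23 and Adrb1 from −0.31 to 0.24 (log2), and DESeq2 gave 0.0017 for Drd5. The cause was not tested. No paired analysis was possible because replicate numbers follow accession order and the labels tie no bound library to an unbound one. Drd3 and Drd4 are limited by their low counts.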
